A study of Mus musculus with 32 samples.

Results

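The 9 genes described here are transcripts of the mouse kidney whose level is known to depend on androgens or to differ between the sexes: *Slc7a13*, *Ugt2b37*, *Srd5a1*, *Slco1a1*, *Kap*, *Acsm3*, *Prlr*, *Odc1* and *Abcc3*. They are 9 autosomal rows, found by symbol, of 32544 in a table of RNA-Seq counts. The libraries came from poly(A) RNA of kidney cortex from 32 mice of 25 weeks, in 8 groups of 4 set by sex, disease and diet. All mice were of the strain C57BL/6J-Col4a3tm1Dec, in which the gene for a chain of type IV collagen is disrupted. Alport mice were Col4a3-/-, a model of the hereditary glomerular disease Alport syndrome, and controls were Col4a3+/-, so that every mouse carried a disrupted allele. Mice received vehicle or nicotinamide riboside (NR), a precursor of NAD+, mixed into the diet (0.5% w/w) starting at 10 weeks. The genes were chosen by name with measured values of these mice known, the levels of males and females among them. The difference between the sexes is therefore given as a description with no test, and the tests of disease and NR, which come from fits over all genes, are not independent of the choice of genes.

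Androgens change transcription through DNA sequences called androgen response elements, and the mouse kidney responds to them mainly in the proximal tubule, where androgens enlarge the cells and raise a set of transcripts. Testosterone acts as such or after reduction to dihydrotestosterone by the steroid 5-alpha-reductases. The genes fall into transporters, enzymes, a secreted protein and a hormone receptor. *Slc7a13* carries acidic amino acids and cystine in the proximal tubule, *Slco1a1* takes up organic anions such as steroid and bile acid conjugates, and *Abcc3* is an efflux pump for glucuronides and other conjugates. *Ugt2b37* belongs to the UDP-glucuronosyltransferases, which make glucuronides of steroids and foreign compounds. *Srd5a1* is steroid 5-alpha-reductase type 1, *Acsm3* activates medium-chain fatty acids to their CoA esters, and *Odc1*, ornithine decarboxylase, starts polyamine synthesis. *Kap* encodes the kidney androgen-regulated protein, and *Prlr* is the prolactin receptor, which signals through the kinase *Jak2* and STAT proteins.

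The genes lie on 8 autosomes (build mm10, annotation GENCODE vM21). On the plus strand are *Slc7a13* at chr4:19818725-19842218, *Acsm3* at chr7:119760923-119787513, *Odc1* at chr12:17544794-17551505 and *Prlr* at chr15:10177238-10349180. On the minus strand are *Ugt2b37* at chr5:87240493-87254804, *Kap* at chr6:133849851-133853762, *Slco1a1* at chr6:141907282-141946962, *Abcc3* at chr11:94343295-94392997 and *Srd5a1* at chr13:69573449-69611442. The 250 bases before the RefSeq start (build GRCm38, the assembly of mm10) were read for 7 of the 9 genes, *Slc7a13* and *Abcc3* having no entry, in 9 windows because *Prlr* has 3 starts. They were searched on both strands for AGAACA, the hexamer of the androgen response element, for the whole element, which is that hexamer, any 3 bases and TGTTCT, and so holds the first motif, and for the TATA motif, TATAAA. The hexamer was found in 1 of 9 windows, that of the second start of *Prlr*, against 16.1% of 32851 windows of all promoters. The whole element was in 0 of the 9 and in 3 of all 32851 windows. TATAAA, found in 12.4% of all windows, was in those of *Kap* and *Slco1a1*. The 2 windows printed run 5′ to 3′ on the strand of the gene: that of *Slco1a1*, the gene with the widest range of levels of the 9, and that of *Prlr* with the only hexamer. Capitals mark TATAAA on the opposite strand (read here as TTTATA) in the first and AGAACA on the opposite strand (TGTTCT) in the second. The first window is chr6:141946963-141947212 (minus strand) and the second chr15:10223656-10223905 (plus strand), and neither overlaps an annotated exon of its gene.
Slco1a1: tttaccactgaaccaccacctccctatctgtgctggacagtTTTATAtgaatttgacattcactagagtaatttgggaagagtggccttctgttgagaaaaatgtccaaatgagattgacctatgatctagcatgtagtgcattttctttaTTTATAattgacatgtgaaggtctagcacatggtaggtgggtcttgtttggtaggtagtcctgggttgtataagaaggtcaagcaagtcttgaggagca
Prlr: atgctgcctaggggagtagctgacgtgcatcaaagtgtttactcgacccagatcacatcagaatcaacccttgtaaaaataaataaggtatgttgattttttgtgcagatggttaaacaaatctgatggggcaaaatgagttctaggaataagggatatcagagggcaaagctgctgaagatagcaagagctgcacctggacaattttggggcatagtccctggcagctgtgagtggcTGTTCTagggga

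Libraries held 16621944–27778797 counts, with a median of 22071395. Levels are given as CPM, counts scaled to a common library size with trimmed mean of M values (TMM) factors of 0.828–1.25. *Ddx3y* on the Y chromosome was 5.59 to 6.42 log2 CPM in the 16 males and −1.40 to 0.531 in the 16 females, without overlap. *Col4a3* mRNA spanned 5.61–6.38 log2 CPM over Alport mice and 6.72–7.65 over controls except NR-treated males. Of the latter, replicates 1 and 3 were at 5.89 and 6.23, within the range of Alport mice, with replicates 2 and 4 at 6.56 and 7.32. The difference between *Col4a3* and its neighbour *Col4a4*, another type IV collagen chain, separated all 16 Alport mice (−1.77 to −1.28) from all 16 controls (−0.896 to −0.283). All 9 genes had counts in every mouse, the lowest being 2 counts of *Slco1a1* in an NR-treated Alport female. In bulk tissue, fewer cells of a type and less RNA per cell cannot be told apart, and counts of *Ugt2b37*, which has close paralogs, are uncertain because the assignment of shared reads is not given in the sources used here. *Srd5a1* and *Prlr* overlap other annotated loci, and the strand setting of the counts is not given there either.

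In vehicle-treated controls the levels of males and females did not overlap for any of the 9 genes. Males were above females for 7 genes and below them for *Prlr* and *Abcc3*. Over all genes, the share without overlap between these 8 mice was 29.8%. Since the sex difference bears on the choice of genes, the count says nothing more about them.

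The transporter *Slco1a1* had the widest separation. It was at 265, 443.5, 199 and 399.8 CPM in the 4 vehicle-treated control males and at 0.728, 0.713, 0.157 and 0.686 CPM in the females, whose libraries held 4–19 counts of it. The ratio of the means was 572. *Slc7a13* was at 941.5, 914.5, 939.5 and 1327 CPM in males and 2.74, 3.61, 3.26 and 3.20 CPM in females, a ratio of 322. Of both genes every male had over 100 times the level of any female.

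Among the enzymes, *Ugt2b37* was at 274 ± 39.0 CPM (SD, n = 4) in males and 2.30 ± 0.880 in females, and *Acsm3* at 418 ± 56.6 and 6.88 ± 2.06. The difference was smaller for *Srd5a1*, at 37.8 ± 3.48 CPM in males and 13.4 ± 3.20 in females, and for *Odc1*, at 886 ± 302.5 and 381 ± 44.6. *Kap* held the most counts of the 9 genes, at 12550, 10950, 13070 and 13300 CPM in males and 1643, 1001, 238.5 and 746.5 CPM in females. Relative to their mean, levels of *Kap* varied more among females than among males, while the SD in CPM was larger in males (1058 against 584).

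Both genes with the opposite order were lower in males. *Prlr* was at 30.7, 16.7, 61.5 and 40.7 CPM in vehicle-treated control males and 200.7, 197, 141 and 245 CPM in females, where the mean was 5.24 times higher. *Abcc3* was at 1.65, 0.983, 1.97 and 2.24 CPM in males and 77.5, 45.5, 47.5 and 31.6 CPM in females, where the mean was 29.6 times higher. The male libraries held 23–47 counts of *Abcc3*.

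**Figure D1:**
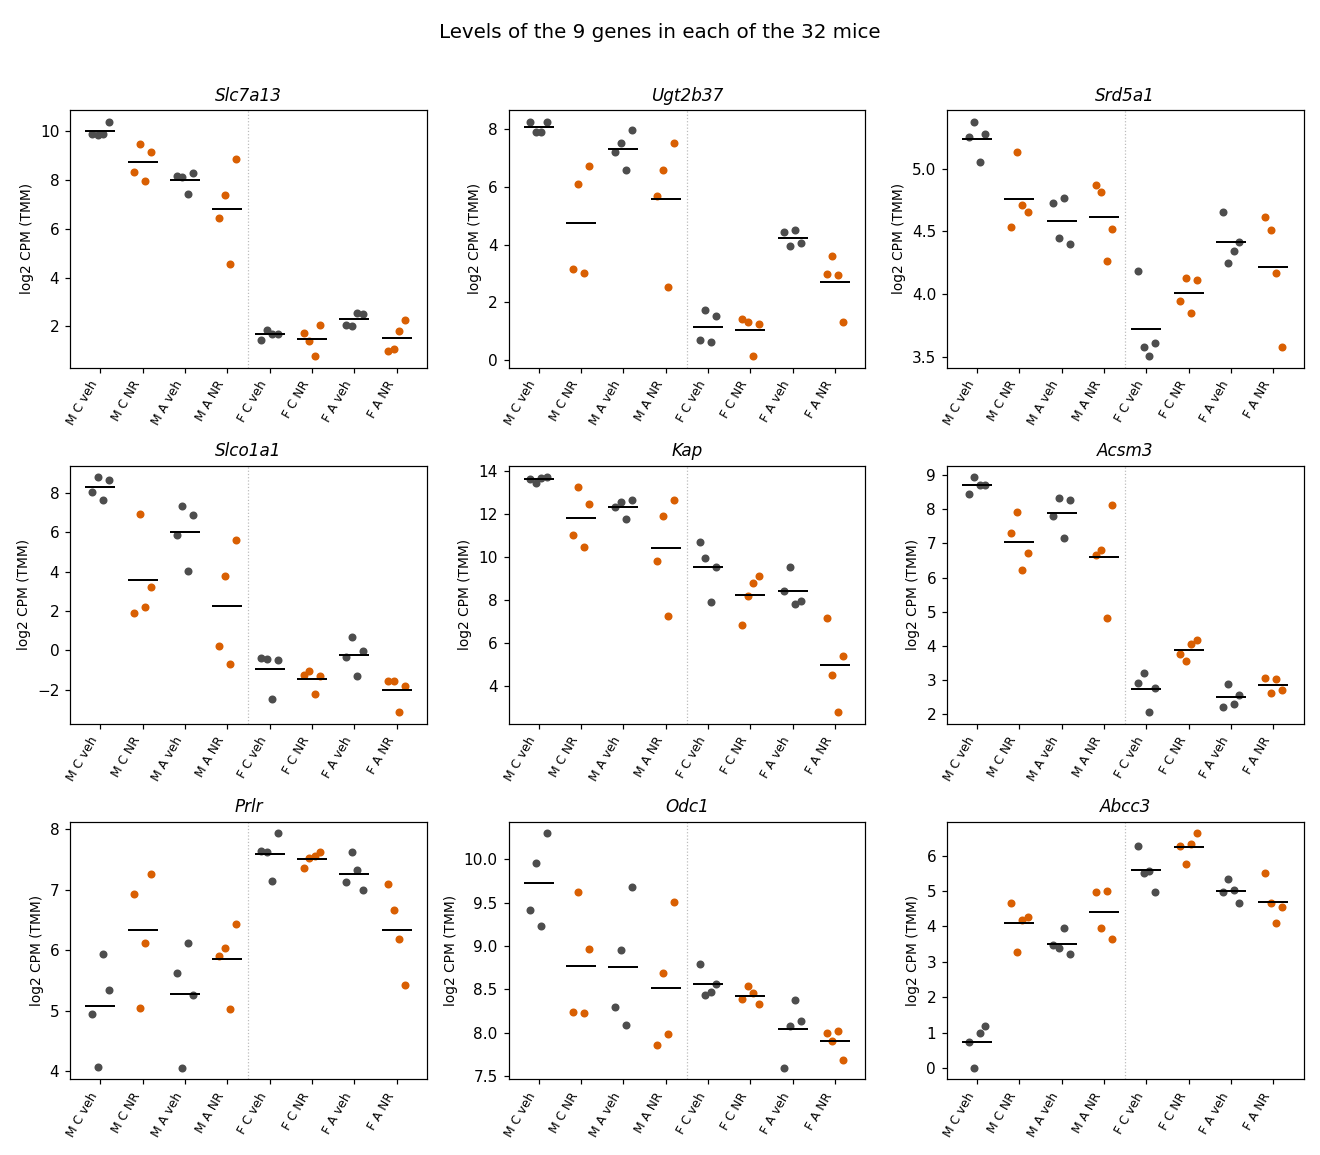
Level of each gene in each mouse, in log2 CPM with TMM scaling (y axis, its own range in each panel), for males (M) and females (F), controls (C) and Alport mice (A), on vehicle (veh, grey) or NR (orange). Points are mice in order of replicate number, bars are means of 4 mice, and the dotted line parts the sexes; in vehicle-treated controls males lie above females for 7 genes and below them for *Prlr* and *Abcc3*.

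The separation of the sexes was less complete in the other settings. With NR, levels of control males and females did not overlap for 8 of the 9 genes (9.89% of all genes), and *Odc1* overlapped. In vehicle-treated Alport mice 7 of 9 did not overlap (12% of all genes), and *Srd5a1* and *Odc1* did. In NR-treated Alport mice 4 of 9 did not overlap (3.67% of all genes), which were *Slc7a13*, *Slco1a1*, *Kap* and *Acsm3*, all higher in males. The share of all genes was thus below that of vehicle-treated controls in each of these settings too.

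On the log2 scale, the male minus female difference of *Slco1a1* went from 9.24 ± 0.574 (SE, 4 against 4 mice) in vehicle-treated controls to 5.01 ± 1.18 with NR, 6.28 ± 0.842 in vehicle-treated Alport mice and 4.25 ± 1.53 in Alport mice with NR. For *Ugt2b37* it was 6.95 ± 0.298, 3.72 ± 1.02, 3.09 ± 0.320 and 2.87 ± 1.19 in the same order. *Abcc3* differed by −4.86 ± 0.369, −2.16 ± 0.344, −1.49 ± 0.211 and −0.30 ± 0.454, so that the order of the sexes could no longer be told from the spread between mice in the last setting. *Kap* was the exception, with differences of 4.08 ± 0.594, 3.56 ± 0.817, 3.89 ± 0.445 and 5.43 ± 1.51. For each of the other 8 genes the difference was smaller in all 3 other settings than in vehicle-treated controls, from 90.6% of its value there (*Acsm3*, vehicle-treated Alport mice) down to 6.16% (*Abcc3*, Alport mice with NR).

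**Figure D2:**
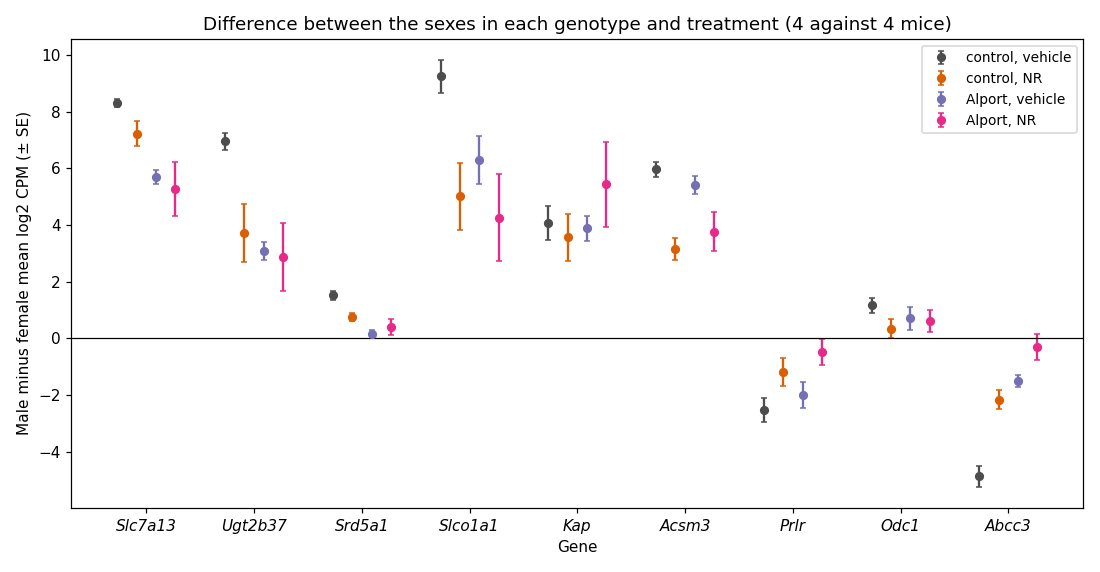
Difference between the male and female mean log2 CPM (y axis) of each gene (x axis) in the 4 combinations of genotype and treatment. Points are differences of means of 4 against 4 mice and bars their SE; the difference of *Abcc3* goes from −4.86 in vehicle-treated controls to −0.30 in Alport mice with NR, whereas that of *Kap* stays at 3.56 or more.

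For the effect of disease on these genes, Alport mice were compared with controls of the same sex and treatment by edgeR's quasi-likelihood test, with p adjusted over all genes by the Benjamini-Hochberg method and a threshold of 0.05. In vehicle-treated males, 5 of the 9 genes changed: *Slc7a13*, *Srd5a1*, *Kap* and *Acsm3* fell, and *Abcc3* rose. Of all 15286 genes tested, 50.8% were called in this comparison, so a count of 5 of 9 is close to the background. Levels did not overlap for 6 of the 9 genes and for 50.6% of all genes.

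*Slc7a13* fell most. Vehicle-treated Alport males were at 281, 274, 173 and 309.5 CPM, all below the lowest control male at 914.5 CPM, with a log2 fold change (log2FC) of −1.91 ± 0.186 (SE, adjusted p = 5.74e-06). *Kap* was at 5114, 6076, 3444 and 6490 CPM, again below every control male (log2FC −1.15 ± 0.188, adjusted p = 0.000225). The call of *Kap* was absent in a single fit of all 32 mice (adjusted p = 0.219). *Srd5a1*, at 26.4, 21.8, 27.1 and 21.1 CPM, lay below the 33.1–41.5 CPM of control males (log2FC −0.56 ± 0.103, adjusted p = 0.00053). *Acsm3* had a log2FC of −0.66 ± 0.227 (adjusted p = 0.0336) and lost its call without Alport replicate 1 (adjusted p = 0.0832) and without control replicates 2, 3 and 4 (0.0843, 0.0606 and 0.0612), in the single fit (0.129) and with no filter on low counts (0.0807).

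*Abcc3*, the efflux pump that was low in control males, went the other way. Vehicle-treated Alport males were at 11.1, 10.51, 15.5 and 9.23 CPM, each over 4 times the highest control male, with a log2FC of 2.85 ± 0.241 (adjusted p = 1.07e-06). Their levels remained below the lowest vehicle-treated Alport female at 25.4 CPM. *Prlr*, the other gene with higher levels in females, had a log2FC of 0.31 ± 0.545 (adjusted p = 0.672).

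*Slco1a1* and *Ugt2b37* did not pass the test, with log2FC of −1.80 ± 0.694 (adjusted p = 0.0722) and −0.61 ± 0.257 (adjusted p = 0.0793). All 4 Alport males, at 58.9, 161, 16.3 and 118 CPM of *Slco1a1*, were below the lowest control male, but they spanned a wide range. Both genes were called by limma-voom (adjusted p = 0.0106 and 0.0303) and without the robust estimate of the dispersions (0.0117 and 0.0409), and *Slco1a1* by DESeq2 as well (0.015). *Odc1* was at 315, 498, 272 and 818 CPM against 684, 998, 602 and 1261 CPM in controls, an overlap, with a log2FC of −0.81 ± 0.399 (adjusted p = 0.129). *Odc1* was called by limma-voom (adjusted p = 0.0425) and in the single fit of all 32 mice (0.0288). Without Alport replicate 4, *Ugt2b37* and *Odc1* were called too (adjusted p = 0.0113 and 0.0216).

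In females on vehicle, 4 of the 9 genes changed with disease (45.7% of 15709 genes tested): *Slc7a13*, *Ugt2b37* and *Srd5a1* rose, and *Odc1* fell. Levels did not overlap for 4 of the 9 genes and for 44.4% of all genes. The change of *Ugt2b37* was the largest. Alport females were at 21.4, 15.3, 22.9 and 16.6 CPM and control females at 1.59, 3.27, 1.53 and 2.84 CPM, without overlap (log2FC 3.08 ± 0.244, adjusted p = 2.02e-05). *Srd5a1* was at 25.2, 19.0, 20.3 and 21.2 CPM against 18.2, 11.9, 11.3 and 12.2 CPM (log2FC 0.72 ± 0.149, adjusted p = 0.00258).

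For *Slc7a13* the rise was small next to the level in males, from 2.74–3.61 CPM in control to 4.03–5.86 CPM in Alport females (log2FC 0.66 ± 0.181, adjusted p = 0.0117), and its call was lost in the single fit of all 32 mice (adjusted p = 0.41). *Odc1* fell from 345.8–444 to 193.8–334 CPM (log2FC −0.46 ± 0.151, adjusted p = 0.0287). The call of *Odc1* was lost without control replicate 1 (adjusted p = 0.0812) or 4 (0.0558) and in the single fit (0.259). *Abcc3* was called without control replicate 4 (log2FC −0.77, adjusted p = 0.0216) and by DESeq2 (0.0234). Without control replicate 3, which had the lowest *Kap* of its group, *Kap* and *Prlr* were also called (log2FC −1.48, adjusted p = 0.0382, and log2FC −0.41, adjusted p = 0.045).

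The sexes were compared directly with the interaction of sex and genotype in the 16 vehicle-treated mice. It was called for 4 of the 9 genes (0.495% of 16152 genes), *Slc7a13*, *Ugt2b37*, *Srd5a1* and *Abcc3*. The male minus the female effect of disease was −2.53 ± 0.268 on the log2 scale for *Slc7a13* (adjusted p = 0.000251), −3.65 ± 0.398 for *Ugt2b37* (0.00113), −1.25 ± 0.187 for *Srd5a1* (0.00543) and 3.49 ± 0.408 for *Abcc3* (0.00192). Each of these effects brought the levels of the sexes closer in Alport mice. Genes chosen for a wide sex difference in controls lean towards such an interaction, since the same control mice enter both. In a single fit of all 32 mice the calls of *Slc7a13* and *Ugt2b37* were absent (adjusted p = 0.412 and 0.382), and in that fit 5 genes were called in all. The interaction of *Kap* was 0.03 ± 0.658, with an adjusted p of 0.998.

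**Figure D3:**
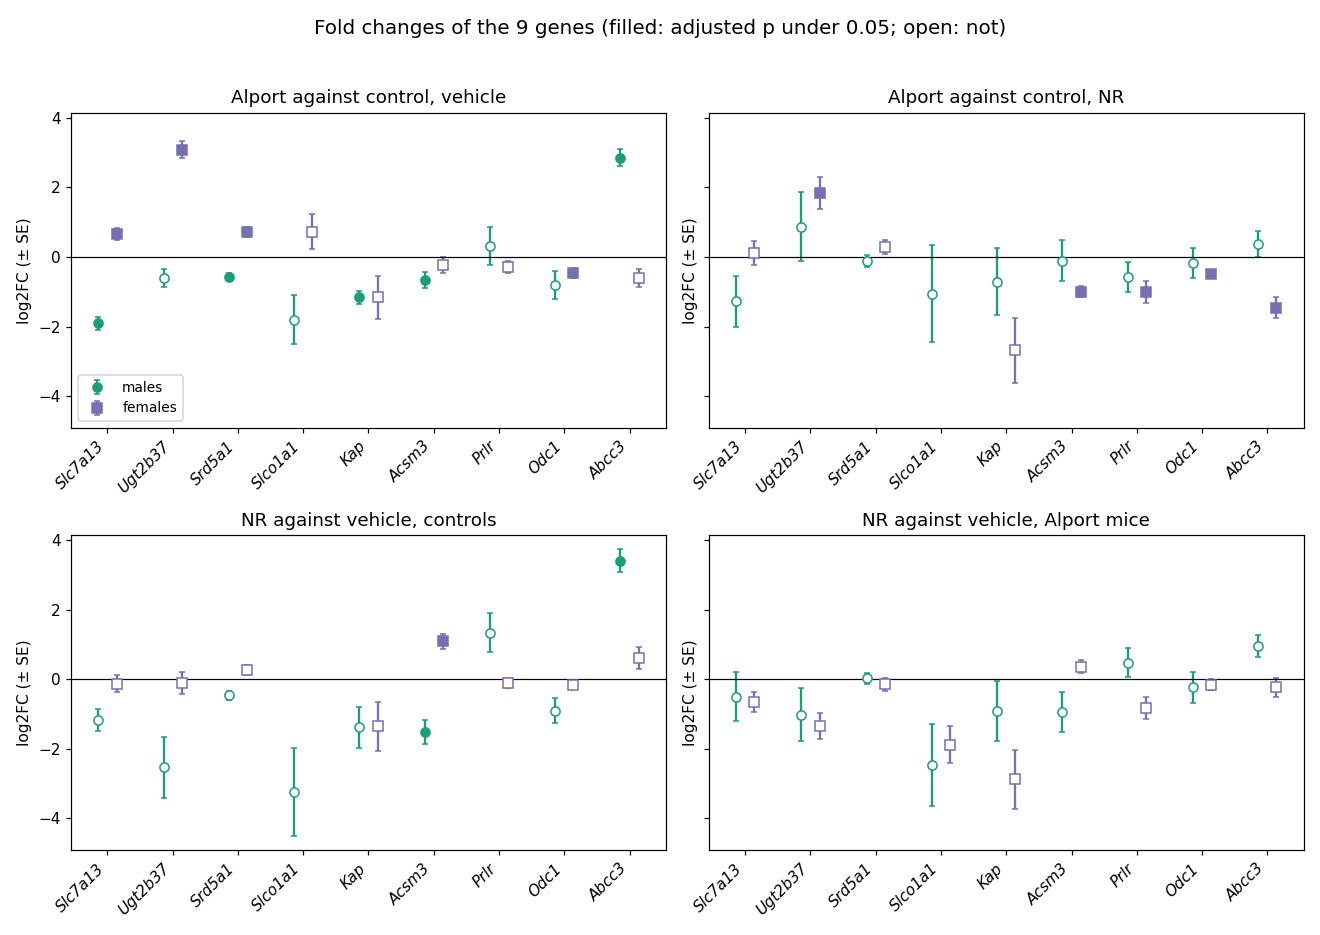
log2FC (y axis) of the 9 genes (x axis) for Alport against control mice on vehicle and on NR, and for NR against vehicle in controls and Alport mice, in males (circles) and females (squares). Bars are SE from edgeR, and filled symbols have an adjusted p under 0.05; *Slco1a1* was not tested in 2 of the female comparisons. For disease on vehicle, *Slc7a13*, *Ugt2b37*, *Srd5a1*, *Slco1a1*, *Prlr* and *Abcc3* have opposite signs in the sexes. Of these, *Slc7a13* and *Srd5a1* are called in both sexes. *Abcc3* rises in males with disease on vehicle and with NR in controls.

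NR was compared with vehicle in controls, with the same 8 vehicle-treated mice that served as controls for the disease. In control males on NR, 2 of the 9 genes passed the test (4.45% of 14696 genes), *Acsm3*, which fell, and *Abcc3*, which rose. The unadjusted p was under 0.05 for all 9, as it was for 3378 of all genes. All 7 genes with higher levels in males had a negative log2FC, and both genes with higher levels in females a positive one. The choice of genes leans the signs this way, since the same vehicle-treated control males entered the sex difference known beforehand.

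*Abcc3* was at 25.3, 9.65, 18.1 and 19.1 CPM in NR-treated control males, against 0.983–2.24 CPM on vehicle (log2FC 3.41 ± 0.330, adjusted p = 0.00138). That is a 10.6-fold higher level, without overlap, and it was called in each of the 16 alternatives tried. *Acsm3* was at 157, 242.5, 75.2 and 106 CPM against 350–489 CPM (log2FC −1.52 ± 0.338, adjusted p = 0.0475). The call of *Acsm3* was close to the threshold, and it was lost without NR-treated replicates 1, 3 or 4 and without any of the 4 vehicle-treated mice (adjusted p = 0.139, 0.0589, 0.0577, 0.104, 0.132, 0.0827 and 0.113).

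The other male-high genes had wide spreads in NR-treated control males. *Slco1a1* was at 3.75, 120, 4.53 and 9.13 CPM, all below the lowest vehicle-treated male at 199 CPM (log2FC −3.24 ± 1.26, adjusted p = 0.195). *Ugt2b37* was at 8.82, 69.3, 8.06 and 105 CPM, below the vehicle range of 240–308 CPM (log2FC −2.52 ± 0.877, adjusted p = 0.159). *Kap* was at 2094, 9851, 1430 and 5701 CPM, below the vehicle range of 10950–13300 CPM (log2FC −1.38 ± 0.578, adjusted p = 0.21). *Slc7a13* was at 319, 703, 245.5 and 562 CPM, also without overlap (log2FC −1.17 ± 0.318, adjusted p = 0.0778). In this comparison 5 of the 9 genes lay below the vehicle-treated males without overlap and 1 above. The shares of all genes were 6.01% and 7.35%.

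Among *Slc7a13*, *Ugt2b37*, *Slco1a1*, *Kap*, *Acsm3* and *Odc1*, 6 of the 7 male-high genes, replicate 2 was the highest for 5 and replicate 3 the lowest for 5. For the other male-high gene, *Srd5a1*, whose levels varied less, replicate 2 was the highest and replicate 1 the lowest. Without replicate 2, the log2FC of *Slco1a1* was −5.80, and 5 of the 9 genes were called. These were *Slc7a13*, *Srd5a1* and *Slco1a1* (adjusted p = 0.0252, 0.0127 and 0.00395) beside *Acsm3* and *Abcc3*. Of all genes, 825 were called in that fit, against 654 with every mouse. The count depended on the test as well. DESeq2 called 6 of the 9 genes and limma-voom 5, with *Slc7a13*, *Ugt2b37* and *Slco1a1* in both. Over the alternatives that kept every mouse, 413 to 1654 of all genes were called. Replicates 1 and 3, which had the 2 lowest levels of *Col4a3*, also had the 2 lowest levels of *Slc7a13*, *Ugt2b37*, *Slco1a1*, *Kap* and *Odc1*. They were not the 2 lowest for *Acsm3* or *Srd5a1*. Their proximal tubule markers summed to 12150 and 13140 CPM over 14 genes, against 17260 and 17310 in replicates 2 and 4. The part of *Col4a3* levels or of these markers in the result was not tested.

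*Prlr* was at 122, 32.97, 69.5 and 153 CPM in NR-treated control males, overlapping the 16.7–61.5 CPM on vehicle (log2FC 1.34 ± 0.564, adjusted p = 0.217). *Odc1* had a log2FC of −0.90 ± 0.369 (adjusted p = 0.198) and *Srd5a1* of −0.46 ± 0.131 (adjusted p = 0.074).

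**Figure D4:**
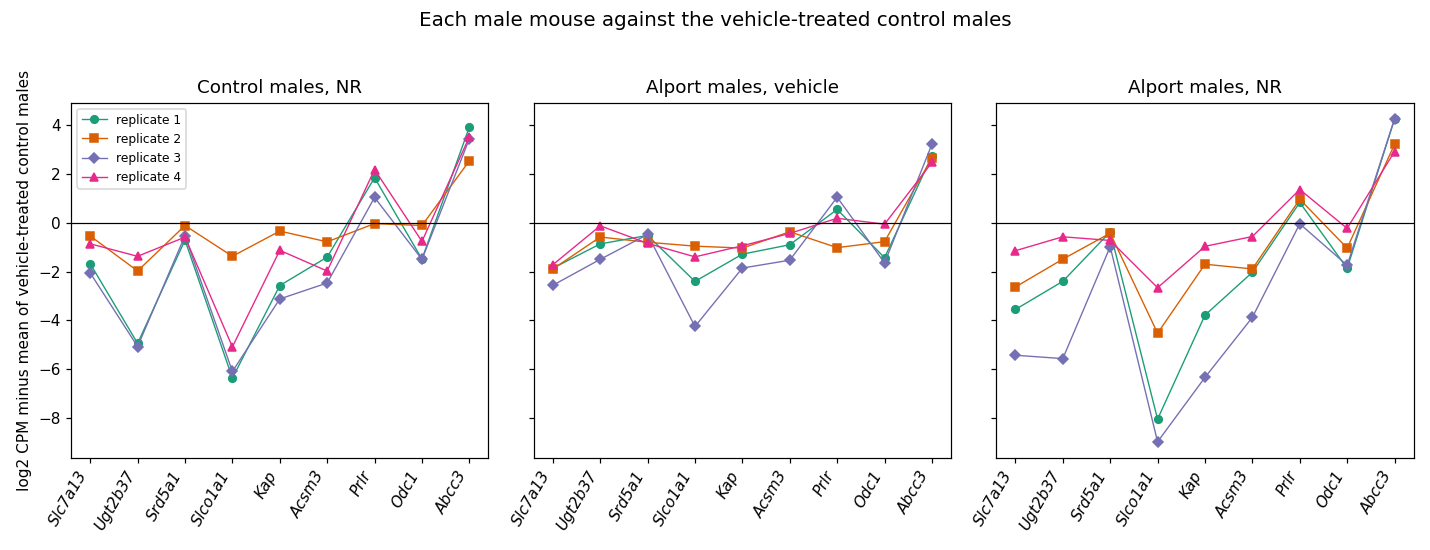
log2 CPM of each male mouse minus the mean of the 4 vehicle-treated control males (y axis) for each gene (x axis), in control males on NR, Alport males on vehicle and Alport males on NR. Lines join the values of 1 mouse; in NR-treated Alport males replicate 4 is nearest to the vehicle-treated controls for *Slc7a13*, *Slco1a1*, *Kap* and *Acsm3* and replicate 3 farthest.

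In control females on NR, *Acsm3* rose, from 7.50, 9.09, 4.16 and 6.77 CPM to 13.5, 11.6, 16.4 and 17.9 CPM without overlap (log2FC 1.10 ± 0.215, adjusted p = 0.0167), and it was the 1 gene called of 8 tested (6.39% of 14951 genes). *Slco1a1* was not tested because its counts were too low. The call of *Acsm3* was lost without NR-treated replicate 3 (adjusted p = 0.0511) and in the single fit of all 32 mice (0.362). Without vehicle-treated replicate 1 *Srd5a1* was called as well (log2FC 0.45, adjusted p = 0.032). *Kap* had a log2FC of −1.35 ± 0.710 (adjusted p = 0.328).

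The interaction of sex and NR in the 16 control mice was called for *Acsm3*, at −2.63 ± 0.460 (adjusted p = 0.0328), and *Abcc3*, at 2.79 ± 0.501 (adjusted p = 0.0331), that is for 2 of 9 genes (0.624% of 15379 genes). The same vehicle-treated control mice enter this interaction and the sex difference known beforehand, so the choice of genes leans towards it. Both calls were near the threshold. Both were lost without NR-treated male replicate 1 or 3, vehicle-treated male replicate 1, 2 or 4, NR-treated female replicate 1, 3 or 4, or vehicle-treated female replicate 3, with 0 of the 9 genes called and adjusted p of 0.0513 to 0.0832. In these fits 6 to 15 of all genes were called, against 96 with every mouse. *Acsm3* alone was lost without vehicle-treated female replicate 4 (0.0706, 17 of all genes called). *Abcc3* alone was lost without NR-treated female replicate 2 (0.055, 41 of all genes called). Without NR-treated male replicate 2, 4 of the 9 genes and 326 of all genes were called. *Slco1a1* and *Srd5a1* (adjusted p = 0.0341 and 0.0232) were then called beside *Acsm3* and *Abcc3*. Without vehicle-treated female replicate 1 *Srd5a1* was added (0.0363, 86 of all genes called).

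In Alport males, none of the 9 genes was called for NR against vehicle, and edgeR called 0 of all 15500 genes (0%), with 777 at an unadjusted p under 0.05. DESeq2 called 62 genes and limma-voom 0, and none of the 9 was among them. The spread among the 4 NR-treated Alport males was the widest of the 8 groups for each gene but *Srd5a1* and *Prlr*, by the SD of log2 CPM. *Slc7a13* ran over 86.8, 164, 23.6 and 461.5 CPM, *Slco1a1* over 1.15, 13.5, 0.594 and 49.2 CPM, and *Kap* over 902, 3839, 154 and 6384 CPM.

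Replicate 4 had the highest level for the same 6 of 7 male-high genes, and replicate 3 the lowest for 5 of them. *Srd5a1*, the other male-high gene, was highest in replicate 1 and lowest in replicate 3. For *Slco1a1*, replicate 4 was above 1 of the 4 vehicle-treated Alport males, and replicates 1 and 3 were below the lowest of them by a factor of over 10. The log2FC were −2.46 ± 1.19 for *Slco1a1*, −1.01 ± 0.760 for *Ugt2b37* and −0.50 ± 0.699 for *Slc7a13* (adjusted p = 0.943, 0.943 and 0.954). *Abcc3*, at 31.6, 15.5, 32.0 and 12.6 CPM against 9.23–15.5 CPM, had the lowest unadjusted p (log2FC 0.97 ± 0.319, adjusted p = 0.912).

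Replicates 1 and 3 of the NR-treated Alport males also had low proximal tubule markers, a sum of 5871 and 4593 CPM over 14 genes against 13100 and 13000 in replicates 2 and 4. Their part in the spread was not tested.

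For 3 of the 9 genes every NR-treated Alport female was below every vehicle-treated one, as for 4.05% of the 15712 genes tested, and none of the 3 passed the test. *Kap* was at 143, 22.7, 7.01 and 42.8 CPM against 342, 752, 224 and 250 CPM (log2FC −2.87 ± 0.849, adjusted p = 0.183). *Ugt2b37* was at 7.96, 12.02, 7.61 and 2.47 CPM against 15.3–22.9 CPM (log2FC −1.34 ± 0.380, adjusted p = 0.166), and *Slco1a1* at 0.0917–0.315 against 0.377–1.58 CPM (log2FC −1.87 ± 0.523, adjusted p = 0.151). By edgeR 0 of the 9 genes were called (0.458% of 15712 genes). The unadjusted p was under 0.05 for 4 of the 9 and for 2590 of all genes. Limma-voom called 0 of the 9, and DESeq2 called 3, these 3 genes (adjusted p = 0.048, 0.0109 and 0.0411). Over the alternatives that kept every mouse, 54 to 728 of all genes were called. Without NR-treated replicate 1 *Kap* was called by edgeR as well (log2FC −4.01, adjusted p = 0.0492), with 163 of all genes called in that fit. The interaction of sex and NR in Alport mice gave 0 of 9 and 0% of 16189 genes by edgeR and limma-voom, 361 having an unadjusted p under 0.05, 2 of the 9 among them, and DESeq2 called 1 gene of all and 0 of the 9.

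With NR in both genotypes, none of the 9 genes was called between Alport and control males by edgeR, nor was any of 14884 genes (0%). The unadjusted p was under 0.05 for 0 of the 9 and for 3208 of all genes, DESeq2 called 1381 genes, limma-voom 0, and neither called any of the 9. A single fit of all 32 mice called 4554 genes, among them *Slc7a13* as 1 of the 9 (adjusted p = 0.0429). Levels overlapped for all 9 genes, and 15% of all genes did not overlap. *Slc7a13* had a log2FC of −1.27 ± 0.736 (adjusted p = 0.336) where it had been −1.91 ± 0.186 on vehicle, and *Abcc3* one of 0.37 ± 0.360 (adjusted p = 0.55) where it had been 2.85 ± 0.241. The comparisons share no mice, and their difference was not tested.

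In females on NR, 5 of 8 genes tested were called between Alport and control mice (27.5% of 15109 genes). *Ugt2b37* was higher in Alport females (log2FC 1.84 ± 0.446, adjusted p = 0.0138), with overlapping levels, and its call was lost by limma-voom (0.0764) and in the single fit (0.108). *Acsm3* (log2FC −0.995 ± 0.171, adjusted p = 0.00214), *Odc1* (−0.48 ± 0.0933, 0.0038), *Abcc3* (−1.46 ± 0.306, 0.00959) and *Prlr* (−1.01 ± 0.308, 0.0414) were lower, and each of these 4 was lower in every Alport than in every control female, as were 17.9% of all genes. In the single fit the calls of *Acsm3*, *Odc1* and *Prlr* were lost (adjusted p = 0.0793, 0.251 and 0.0653). *Abcc3* was at 45.2, 25.1, 17.1 and 23.2 CPM in Alport and 77.2, 54.3, 80.5 and 99.3 CPM in control females. *Prlr* was at 136, 102, 73.0 and 42.8 CPM against 164, 184, 188 and 198 CPM. The call of *Prlr* was lost without any 1 of 6 mice, namely Alport replicates 2 and 3 and the 4 controls (adjusted p = 0.0787, 0.104, 0.0687, 0.0794, 0.0771 and 0.0866). *Kap* was not called (log2FC −2.69 ± 0.936, adjusted p = 0.073), but it was by DESeq2 (0.0144), by limma-voom (0.0148), in the single fit (0.0217), without the robust estimate of the dispersions (0.028) and without Alport replicate 1 (log2FC −3.85, adjusted p = 0.0228). The interaction of sex and genotype with NR was called for 0 of the 9 genes and for 0% of 15703 genes by edgeR and limma-voom, 401 having an unadjusted p under 0.05, *Abcc3* the 1 of the 9 among them, and for 1 gene of all by DESeq2.

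Among genes of steroid metabolism, the largest falls in vehicle-treated Alport males were those of *Srd5a2*, another 5-alpha-reductase (log2FC −1.42, adjusted p = 2.2e-05), and of *Hsd3b2* (−1.20, adjusted p = 0.00862). Both also fell in vehicle-treated Alport females (−1.06, adjusted p = 0.000577, and −0.72, adjusted p = 0.0258). *Cyp7b1*, an enzyme that hydroxylates oxysterols and steroids, rose in females (1.28, adjusted p = 0.000485) and had a log2FC of 0.09 in males (adjusted p = 0.917).

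Lists of other genes were counted beside the shares of all genes, of which 26.8% rose and 24% fell with disease in vehicle-treated males and 23.9% rose and 21.8% fell in females. Of 11 genes listed as higher in the kidney of males, 6 fell and 1 rose in vehicle-treated Alport males (median log2FC −0.81), and 3 fell and 5 rose in females (median −0.087). *Cyp2j13*, an epoxygenase (2.37, adjusted p = 0.000203), and *Timd2*, a cell surface receptor (1.60, adjusted p = 0.000144), had the largest rises in females. *Serpina1f* went against the list, with a mean of 71.1 CPM in vehicle-treated control males and 167 in females. The interaction of sex and genotype on vehicle was called for 3 of the 11 (0.495% of all genes), all with a negative sign. These were *Cyp2j13* (−3.32, adjusted p = 0.0175), *Timd2* (−1.42, 0.0175) and *Cyp2e1* (−1.20, 0.0334). A list of genes known as higher in males leans towards a negative interaction, since the same control mice enter both. The list was also chosen with earlier results of these data known, so this count is not an independent test. For NR in control males 1 of 11 fell and 0 rose (median −0.65), where 1.48% of all genes fell and 2.97% rose. Of 5 genes listed as higher in females, *Slc7a12*, *Cyp4a14* and *Kynu* had higher means in females of the vehicle-treated controls, whereas *Cyp2a4* was at 781 CPM in males and 176 in females and *Hao2* overlapped at 501 ± 74.3 and 540 ± 90.9 CPM. Of these 5, 3 fell in vehicle-treated Alport males, 4 fell in their female counterparts, and 2 rose in control males given NR. *Cyp4a14* rose with NR in controls of both sexes (5.89, adjusted p = 0.0167 in males, and 1.72, adjusted p = 0.02 in females). *Kynu* passed the test in control males only (1.08, adjusted p = 0.0463) and *Cyp2a4* in control females only (0.43, adjusted p = 0.0271). The interaction of sex and NR in controls was called for neither gene (1.20, adjusted p = 0.0713, and −0.83, adjusted p = 0.308).

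In the polyamine pathway, of which *Odc1* is the first enzyme, 4 of 17 genes rose and 5 fell in vehicle-treated Alport males, and 4 rose and 7 fell in females, the males being close to the shares of all genes. *Smox*, spermine oxidase, rose in both (0.98, adjusted p = 9.56e-05, and 1.07, adjusted p = 0.000139), and *Sms*, spermine synthase, fell in both (−0.57, adjusted p = 0.000175, and −0.48, adjusted p = 0.00463). Of 9 genes of prolactin receptor signalling, 4 rose and 0 fell in each sex (all genes: 26.8% and 24% in males, 23.9% and 21.8% in females). The largest was *Socs3*, a feedback inhibitor of cytokine receptors (3.86, adjusted p = 2.54e-08 in males, and 2.91, adjusted p = 6.88e-05 in females), while *Prlr* itself was not called. Of the family relatives of the 9 genes, 12 of 21 fell and 2 rose in males, and 12 fell and 4 rose in females, against the same shares. *Acsm1*, *Acsm2* and *Acsm5* fell in both sexes, and *Slc3a1*, the heavy chain that pairs with *Slc7a13* (−0.90, adjusted p = 3.43e-05 in males, −0.68, adjusted p = 0.00179 in females), also fell.

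Markers of the proximal tubule and of other cell types moved with disease. All 14 proximal tubule markers fell in vehicle-treated Alport mice of both sexes (median log2FC −0.87 and −0.87). Their summed level was 17690–19890 CPM in vehicle-treated control males and 6949–10780 in Alport males, and 15560–17580 and 6917–10640 in females. Tubule injury markers (5 of 5 rose), immune cell markers (6 of 6 in males, 5 of 6 in females) and fibroblast markers (5 of 5) were higher in Alport mice of both sexes. In NR-treated control males 2 of 14 proximal tubule markers fell (12150–17310 CPM) and 2 of 5 tubule injury markers rose, their sum being 51.0, 65.2, 45.8 and 21.0 CPM against 10.3–15.6 CPM on vehicle. Of the fibroblast markers 2 of 5 rose as well, with sums of 165, 160.4, 155 and 104 CPM against 85.8–100.4 CPM. None of 5 immune cell markers tested was called. Adrenal cortex markers summed to 2.87–7.33 CPM over all groups, with 1 or 2 of 5 at 0 in a group. The part of these markers in the changes of the 9 genes was not tested.

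For each of the 9 genes, the genes with the most similar course over the 32 mice were sought among 13820 genes, by the mean absolute difference of log2 CPM after centring each gene. *Slc7a13* was closest to *Ddx3y* (0.689), the Y-linked gene that marks males, and *Ugt2b37* to *Cyp2j13* (0.827), which was also among the 3 closest of *Slc7a13* and *Slco1a1*. *Slco1a1* was closest to *Pzp* (0.754), *Kap* to *Slc22a30* (0.763), *Acsm3* to *Apoh* (0.638) and *Abcc3* to *Trf* (0.559). For *Srd5a1*, *Prlr* and *Odc1*, whose levels varied less, the closest were *Prkd3* (0.230), *Ror2* (0.389) and *Pdss1* (0.215).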

How the data were processed

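RNA from the kidney cortex of 32 mice was sequenced as poly(A) libraries, and the authors made the deposited counts, whole reads for each gene symbol and mouse, with BioJupies. The labels name build mm10; the aligner, annotation and strand are not given in the sources used here. The second deposited table holds log10(CPM + 1) values made by the authors, which equalled those computed from the counts within 4.4e-16 and was not used further. Genes were used by symbol.

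Each comparison was an edgeR 4.0.16 (R 4.3.3) quasi-likelihood fit of its 8 mice, 16 for interactions, with filterByExpr (minimum count 10), TMM scaling and robust dispersions. SE is |log2FC| divided by the square root of F. Levels are CPM on TMM effective library sizes of all 32 mice, with prior count 0.5 for log2 CPM. Genes not overlapping between the sexes were counted among 16469 genes. The scripts were tested on simulated data.

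The 9 genes and all lists were chosen with earlier results of these data known. Named were the 9 genes, per list at most 3 genes with the largest rise or fall on vehicle with disease, and the 3 most similar genes; *Cyp2e1*, *Slc3a1*, *Acsm1*, *Serpina1f*, *Slc7a12* and others of their list given for their sex difference were named after their values were seen. A further gene and the counts of a list that holds it are not reported here. Mice within groups (48 pairs) differed by more than sampling noise (chi-square over its degrees of freedom 7.56 or more). DESeq2 1.42.0, limma-voom (limma 3.58.1), a fit of all 32 mice, RLE factors, no filter, a CPM filter (0.5 in 4 mice), a replicate block, non-robust dispersions (added after seeing the data) and leaving out each mouse were alternatives.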

Additional observations from a re-analysis of the deposited data

Results flagged for a closer look

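The effect of disease on vehicle differed between males and females by the interaction test for *Slc7a13* (−2.53 on the log2 scale, male minus female), *Ugt2b37* (−3.65), *Srd5a1* (−1.25) and *Abcc3* (3.49). The effect of NR in controls differed between the sexes for *Acsm3* (−2.63) and *Abcc3* (2.79). In a single fit of all 32 mice the disease interactions of *Slc7a13* and *Ugt2b37* were not called (adjusted p = 0.412 and 0.382). Each of the NR interactions kept its call in 13 of 24 alternatives. Vehicle-treated control mice enter all these interactions and also the sex difference known at the choice of genes.

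A single mouse stood far from the other 3 of its group in 5 of 72 sets of 4 mice, where chance gives about 5%. The gap to the nearest mouse, as a share of the range of the group on the log2 scale, was 0.922 for *Slc7a13* in vehicle-treated control males, with replicate 4 high at 1327 CPM. It was 0.85 for *Srd5a1* in vehicle-treated control females, with replicate 1 high at 18.2 CPM. Low mice were replicate 3 of vehicle-treated control females for *Slco1a1* (0.959), replicate 3 of NR-treated control females for *Ugt2b37* (0.874) and replicate 3 of NR-treated Alport females for *Slco1a1* (0.843), at 0.157, 1.08 and 0.0917 CPM. Each of these 3 rests on fewer than 20 counts.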

How the results depend on the processing

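The number of the 9 genes called for Alport against control males on vehicle was 5. Over the alternatives that kept every mouse it ran from 4 to 8, with 8 by limma-voom and with the replicate block. All genes called over these alternatives ranged from 7706 to 7989, and brackets give this range below. For females on vehicle the number of the 9 genes was 4, and ran from 2 in a single fit of all 32 mice to 5 (5977–7504). For males on NR it was 0, and 1 in the single fit (0–4554). For females on NR it was 5, and ran from 2 in the single fit to 6 (3794–4738). For NR against vehicle in control males it was 2, and 6 by DESeq2 and 5 by limma-voom (413–1654). There it was 4 in the single fit and with the replicate block, and 1 with no filter. In control females it was 1, and 0 in the single fit and with the block (20–1493). In Alport females it was 0, and 3 by DESeq2 (54–728). For sex by genotype on vehicle it was 4, and 2 in the single fit (5–260). For sex by NR in controls it was 2, and ran from 1 by limma-voom and in the single fit to 3 (6–504). Without 1 mouse, the ranges of the 9 genes were 4–7 (disease, males on vehicle), 3–6 (females on vehicle), 4–6 (females on NR), 1–5 (NR, control males), 0–2 (NR, control females), 0–1 (NR, Alport females) and 0–4 (sex by NR, controls). In the same order, all genes called ranged over 6872–7959, 6026–7621, 2967–5013, 111–1863, 422–857, 9–163 and 6–671. The replicate block changed the counts of the 9 genes also from 4 to 3 (females on vehicle) and from 5 to 4 (females on NR). It changed the count of all genes from 0 to 351 (males on NR). The labels do not relate mice of 1 replicate number, and of 32 correlations between same-numbered mice (−0.137 to 0.205) 8 were over 0.1, so the numbers were not taken as pairs. Every mouse correlated best with its own number (8 of 8) in Alport against control females on NR only, a hint from the data and not the design, against 0 to 6 of 8 in the other comparisons. The causes were not tested. Of 1981 values of single genes under an alternative, 48 changed sign, none of a called gene. Over all comparisons and alternatives 356 calls were kept, 60 lost and 46 gained. Male minus female levels moved by less than 1 SD in all 324 values. Depth limits *Slco1a1* in females, at 2–42 counts a library.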
